A study of Mus musculus with 9 samples.

Results

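The 39 genes described here encode the proteins of glucose uptake, glycolysis, lactate handling and the glycogen and pentose phosphate branches of sugar use. They were listed by name for their place in the pathway, with earlier results of these data known, and all 40 names listed matched 39 of the 14011 genes of the deposited table, since *Pkm* and *Pkm2* name the same gene. RNA was sequenced from mouse hearts at embryonic day 10.5 (E10.5) in 3 groups of 3 libraries, each made from a pool of 6 hearts of a mixed strain. Homozygotes were *Ctcf* fl/fl with the *Nkx2.5-Cre* driver and heterozygotes were *Ctcf* fl/+ with the same driver. Controls carried no Cre, and are given as *Ctcf* fl/fl by the sample labels but as *Ctcf* fl/+ by the study's text, so a comparison with controls includes the driver as well as the deletion. CTCF is a DNA-binding protein that organizes chromatin loops. The driver recombines in cardiac progenitors and their descendants, so blood and other cells in the dissected heart keep *Ctcf*. The comparison asked how the RNA of sugar-using enzymes differed when *Ctcf* was removed from the forming heart, an organ that at this stage relies largely on glycolysis.

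Glucose enters the cell through transporters of the SLC2A family and is phosphorylated by hexokinases. Phosphofructokinase commits it to glycolysis, and the lower part of the pathway yields ATP and pyruvate, which lactate dehydrogenase can turn into lactate for export by monocarboxylate transporters. Most steps are served by several isoenzymes, separate genes for the same reaction, of which striated muscle favours particular members such as *Slc2a4*, *Pfkm*, *Pgam2*, *Eno3* and *Pygm*.

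Values are the normalized signal of the deposited table, in which reads were scaled per library. The scale was close to, but not exactly in proportion to, the total reads of each library. A single read was worth from 0.0901 to 0.231 in libraries of 4294537 to 11629365 reads. Libraries are named in the order of the table as 1 to 3 within each group, and it is not stated whether pools of a group shared litters, so p-values measure the spread between these pools. *Ctcf* itself read 121, 122 and 122 in controls, 101, 94.2 and 97.0 in heterozygotes and 79.6, 80.0 and 84.7 in homozygotes, which were at 67.0% of the control mean. Cardiomyocyte markers summed to 21105 to 23886 in controls, 23702 to 27403 in heterozygotes and 20362 to 23793 in homozygotes, so that homozygotes overlapped controls widely and heterozygotes by 1 library. All 9 erythroid markers measured rose in homozygotes, their summed level being 32590 to 47301 in controls, 26175 to 44337 in heterozygotes and 57935 to 76575 in homozygotes. In pools of whole hearts more cells of a type and more RNA per cell cannot be told apart. Control 1 stood apart with a summed level of liver and endoderm markers of 922, against 62.8 and 70.6 in the other controls, 9.0 to 18.6 in heterozygotes and 12.0 to 79.1 in homozygotes. Short genes were higher and long genes lower in homozygotes, with a median log2 fold change against controls of 0.17 among the 1398 shortest genes and -0.16 among the 1398 longest.

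Against controls, 4 of the 39 genes rose in homozygotes (*Pgam2*, *Slc2a4*, *Eno3* and *Pygl*) and 10 fell (*Hk2*, *Pfkl*, *Pfkp*, *Pgam1*, *Eno2*, *Slc16a1*, *Slc16a3*, *Pygm*, *Gys1* and *Pdk3*), at a limma adjusted p under 0.05 over all genes, which is what a call means here. The 4 that rose were 10.3% of the 39 genes beside 7.19% of all genes called higher, and the 10 that fell were 25.6% beside 8.03% of all genes called lower. Against heterozygotes, 5 genes rose (12.8%, beside 6.87% of all genes) and 10 fell (25.6%, beside 6.70%). The median log2 fold change of the 39 genes was -0.06 against controls and -0.13 against heterozygotes, with medians over all genes of -0.00108 and -0.00448. The libraries of the groups did not overlap for 20 genes against controls (51.3%, beside 33.2% of all genes) and for 23 against heterozygotes (59.0%, beside 30.8%). In total 18 genes were called in at least 1 of these comparisons, which share the homozygote libraries, and 21 in neither. The count of 18 serves to list the genes described below, and no share over all genes was worked out for it. The plot of fold changes by pathway step shows all 39 genes.

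**Figure D1:**
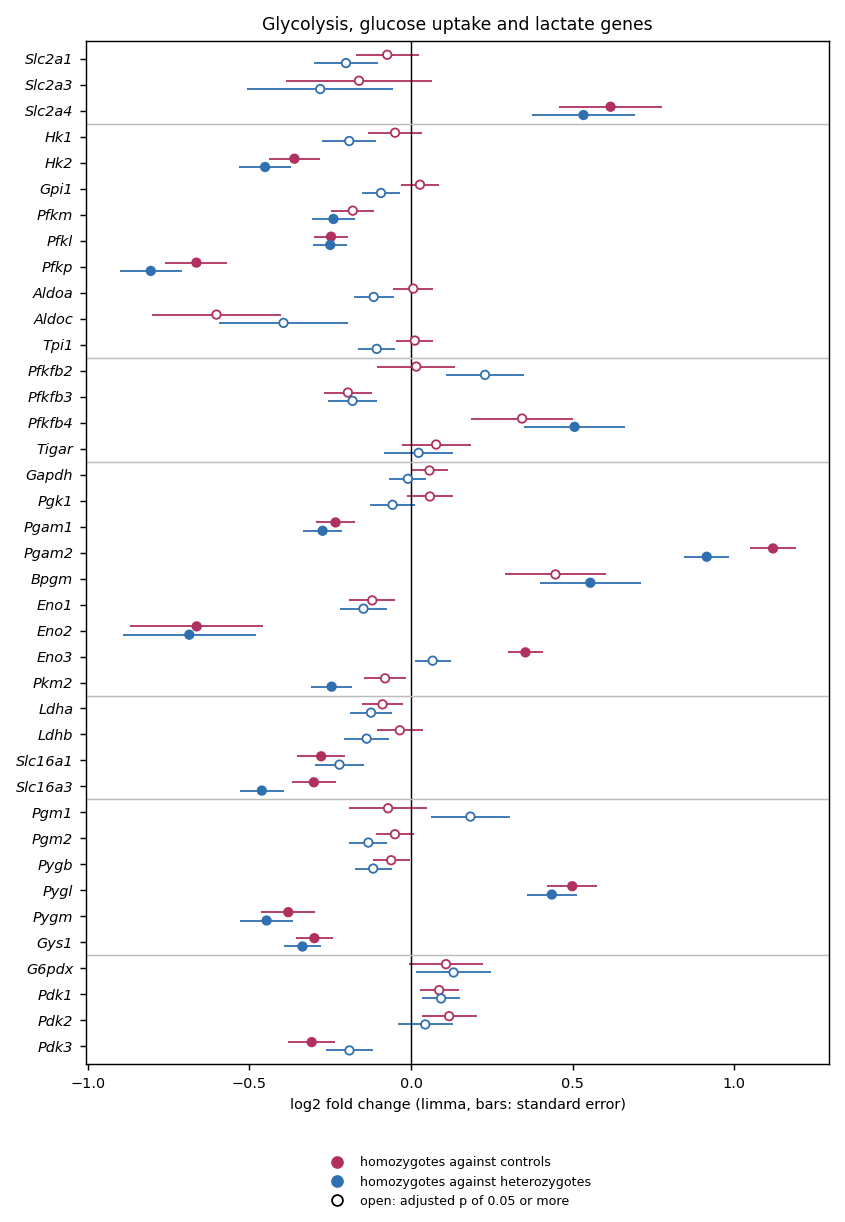
Log2 fold change of each of the 39 genes in homozygotes against controls (red) and against heterozygotes (blue), grouped from top to bottom as glucose transporters, upper glycolysis, fructose 2,6-bisphosphate control, lower glycolysis, lactate, glycogen and branches. Points are limma estimates with standard error bars, filled where called, and *Pgam2* lies furthest right at 1.12 and 0.91.

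**Figure D2:**
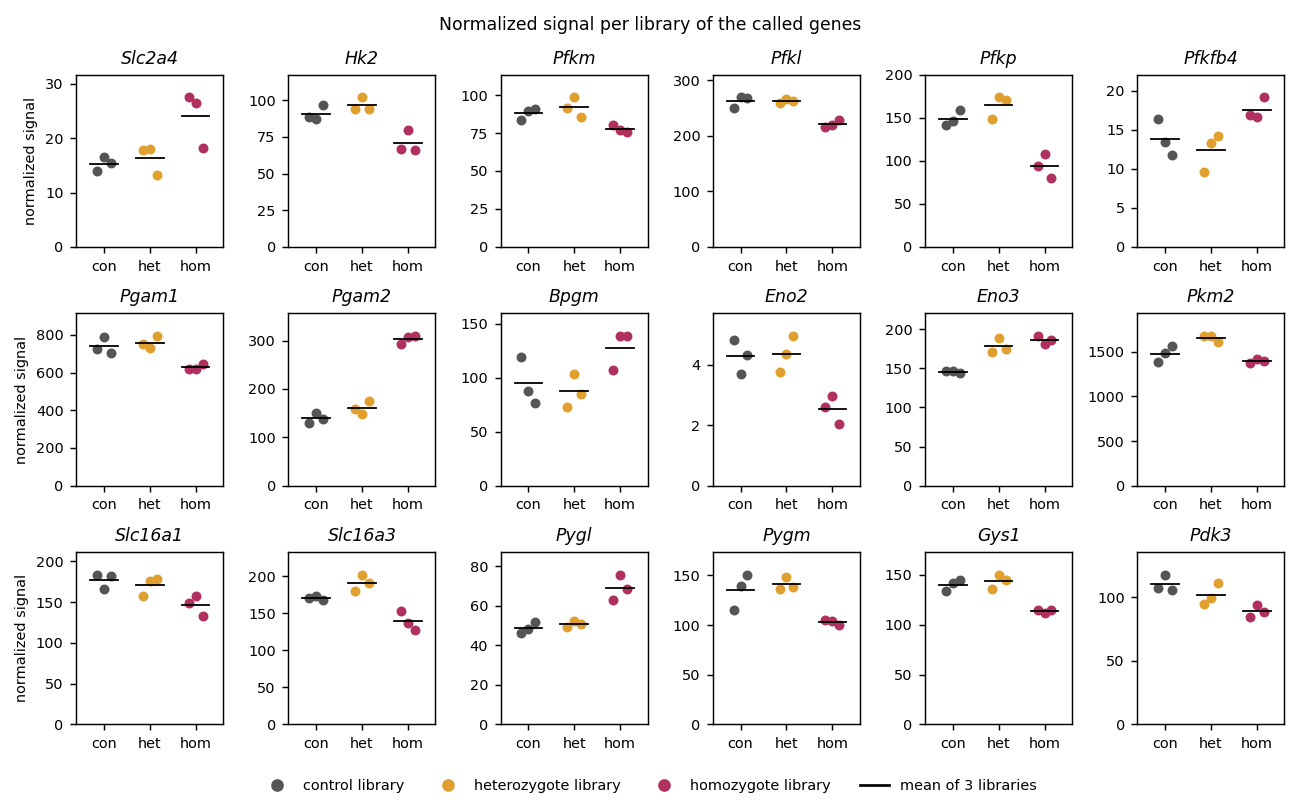
Normalized signal (vertical axis, from 0) in each of the 9 libraries for the 18 genes called in at least 1 homozygote comparison, with controls (con), heterozygotes (het) and homozygotes (hom) side by side and a line at the mean of each group of 3. The homozygote libraries of *Pgam2*, *Pfkp* and *Pygl* lie clear of both other groups.

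Among glucose transporters, the muscle and fat transporter *Slc2a4* (GLUT4) rose while the abundant *Slc2a1* and *Slc2a3* were not called. *Slc2a4* (chr11:69756045-69761690, minus strand, NCBIM37) read 14.0, 16.5 and 15.4 in controls, 17.8, 18.1 and 13.3 in heterozygotes and 27.6, 26.5 and 18.2 in homozygotes. Homozygotes 1 and 2 were well above every other library, and homozygote 3 exceeded heterozygote 2 only narrowly. The log2 fold change was 0.62 ± 0.16 (SE) against controls (limma adjusted p 0.0203) and 0.53 ± 0.16 against heterozygotes (limma adjusted p 0.0427). The first call was not kept without control 1, control 3, homozygote 1 or homozygote 2 (limma adjusted p 0.0617 to 0.0747), and the second was kept in 7 of 19 alternatives. *Slc2a1* (GLUT1), the basal transporter of embryonic cells, had 188 signal per kb of exonic length in controls, against 5.41 for *Slc2a4* and 11.8 for *Slc2a3* (GLUT3), a transporter of high affinity. *Slc2a1* differed by -0.07 ± 0.10 on the log2 scale against controls (limma adjusted p 0.667) and ranged from 486 to 572 in controls and from 427 to 558 in homozygotes. *Slc2a3* read 124 in control 1 beside 60.4 and 71.9 in the other controls, the library in which liver and endoderm markers stood out, and its part in that value was not tested.

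Of the hexokinases, which trap glucose in the cell as its phosphate, *Hk2*, the insulin-responsive muscle form, fell, while *Hk1*, the form of most tissues, did not pass the test. *Hk2* read 88.5, 86.9 and 96.8 in controls, 93.8, 102 and 94.0 in heterozygotes and 66.6, 80.0 and 65.7 in homozygotes. Every homozygote library was below every other library, and *Hk2* fell by 0.36 on the log2 scale against controls (limma adjusted p 0.00949) and by 0.45 against heterozygotes (limma adjusted p 0.00294). The call against controls was not kept without control 3 (limma adjusted p 0.0502). *Hk1* differed by -0.05 ± 0.08 and -0.19 ± 0.08 on the log2 scale. The region of 250 bases before the *Hk2* start is shown because *Hk2* is a textbook target of hypoxia signalling and holds the core of that response element, ACGTG, 2 times, read on the other strand as the capitals below (chr6:82774455-82774704, minus strand, GRCm38.p6, RefSeq).
Hk2: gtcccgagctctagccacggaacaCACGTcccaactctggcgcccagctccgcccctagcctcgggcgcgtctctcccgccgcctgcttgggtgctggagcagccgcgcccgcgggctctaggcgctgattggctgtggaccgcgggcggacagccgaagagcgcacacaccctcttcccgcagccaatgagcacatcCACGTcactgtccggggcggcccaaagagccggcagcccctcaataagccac

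Phosphofructokinase, the main point of control of glycolysis, is built from subunits of 3 kinds, of which the platelet form *Pfkp* fell most. *Pfkp* (chr13:6579014-6648023, minus strand) read 141, 146 and 159 in controls, 148, 174 and 170.4 in heterozygotes and 94.4, 108 and 80.4 in homozygotes, so that its homozygote mean was 63.4% of the control mean. The log2 fold change was -0.66 ± 0.10 against controls (limma adjusted p 0.00067) and -0.80 ± 0.10 against heterozygotes (limma adjusted p 0.00021), and both calls were kept in all 19 alternatives. With 9395 bases of exon *Pfkp* is among the longest of the 39 genes, and with the trend over gene length removed its change against controls was -0.52 (limma adjusted p 0.00122). The liver form *Pfkl*, at 249 to 269.6 in controls and 215 to 228 in homozygotes, fell by 0.25 on the log2 scale against both groups (limma adjusted p 0.00803 and 0.00839). The muscle form *Pfkm* fell by 0.24 against heterozygotes (limma adjusted p 0.0302), a call not kept without heterozygote 1, heterozygote 2, homozygote 2 or homozygote 3 (limma adjusted p 0.0701 to 0.123). Against controls *Pfkm* differed by -0.18 ± 0.07 (limma adjusted p 0.0852). The 250 bases before the *Pfkp* start held none of the motifs searched and are given for comparison with *Hk2* (chr13:6648772-6649021, minus strand, GRCm38.p6, RefSeq).
Pfkp: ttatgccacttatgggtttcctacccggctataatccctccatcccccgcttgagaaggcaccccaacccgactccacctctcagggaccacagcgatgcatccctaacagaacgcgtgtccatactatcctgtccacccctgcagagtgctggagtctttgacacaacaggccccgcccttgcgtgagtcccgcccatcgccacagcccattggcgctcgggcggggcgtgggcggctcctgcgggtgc

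The remaining enzymes of the upper pathway are the isomerase *Gpi1*, the aldolases *Aldoa* and *Aldoc*, which split fructose bisphosphate, and the triosephosphate isomerase *Tpi1*. *Gpi1*, *Aldoa* and *Tpi1* differed by 0.03, 0.01 and 0.01 on the log2 scale against controls, each with an SE of 0.06, and by -0.09, -0.12 and -0.11 against heterozygotes. With quantile normalization *Gpi1*, *Aldoa* and *Tpi1* were called lower against heterozygotes, at -0.22, -0.23 and -0.26 (limma adjusted p 0.0231, 0.0147 and 0.00747). *Aldoc*, the brain form, was low at 7.39, 7.27 and 9.14 in controls and 3.75, 5.16 and 6.53 in homozygotes. Its groups did not overlap, but the log2 fold change of -0.60 ± 0.20 missed the threshold (limma adjusted p 0.0569), and passed it without homozygote 3 (-0.77, limma adjusted p 0.0347).

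Fructose 2,6-bisphosphate is the strongest activator of phosphofructokinase, and it is made and removed by the *Pfkfb* enzymes and removed by *Tigar*. *Pfkfb4* read 16.4, 13.5 and 11.8 in controls, 9.66, 13.3 and 14.2 in heterozygotes and 16.9, 16.7 and 19.2 in homozygotes, where the lowest homozygote lay just above the highest control. It rose against heterozygotes by 0.51 ± 0.16 on the log2 scale (limma adjusted p 0.0482). That call was kept in 9 of 19 alternatives and not without control 2, heterozygote 1, heterozygote 2 or any single homozygote (limma adjusted p 0.0644 to 0.174). Against controls the difference was 0.34 ± 0.16 (limma adjusted p 0.162). *Pfkfb2*, *Pfkfb3* and *Tigar* were not called, with log2 fold changes of 0.02, -0.20 and 0.08 against controls. All 4 genes were scarce, from 2.46 (*Pfkfb2*) to 5.57 (*Tigar*) signal per kb in controls.

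In lower glycolysis the 2 phosphoglycerate mutases, which move the phosphate of 3-phosphoglycerate, changed in opposite directions. The muscle form *Pgam2* (chr11:5701643-5703736, minus strand, 840 bases of exon) read 130.2, 149.9 and 139 in controls, 159, 149 and 175 in heterozygotes and 293, 307 and 309.8 in homozygotes. The lowest homozygote was well above the highest heterozygote, and the homozygote mean was 2.17 times the control mean and 1.88 times the heterozygote mean. The log2 fold change was 1.12 ± 0.07 against controls (limma adjusted p 6.7e-07) and 0.91 ± 0.07 against heterozygotes (limma adjusted p 7.7e-06), the largest of the 39 genes in size in both. Both calls were kept in all 19 alternatives, and with the gene length trend removed the changes were 0.94 and 0.77. The brain and general form *Pgam1* (chr19:41986361-41993154, plus strand) read 723, 788 and 703 in controls, 753, 728 and 795 in heterozygotes and 619, 619 and 643 in homozygotes. *Pgam1* fell by 0.23 against controls (limma adjusted p 0.0207) and by 0.27 against heterozygotes (limma adjusted p 0.0106). The calls of *Pgam1* were not kept without control 2 or homozygote 2 in the first case (limma adjusted p 0.0787 and 0.055) and without heterozygote 3 in the second (limma adjusted p 0.052).

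The starts of this pair are shown because the genes encode the same enzyme and moved apart. The 250 bases before *Pgam1* (chr19:41911621-41911870, plus strand) hold 1 ACGTG, in capitals, while those before *Pgam2* (chr11:5803797-5804046, minus strand) hold no ACGTG but 1 match to the MEF2 consensus, also in capitals, 80 bases before the start (GRCm38.p6, RefSeq).
Pgam1: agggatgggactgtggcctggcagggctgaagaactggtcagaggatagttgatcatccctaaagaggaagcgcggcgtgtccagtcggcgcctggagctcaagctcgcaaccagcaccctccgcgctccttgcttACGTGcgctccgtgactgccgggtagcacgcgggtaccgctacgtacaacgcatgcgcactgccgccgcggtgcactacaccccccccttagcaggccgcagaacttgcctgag
Pgam2: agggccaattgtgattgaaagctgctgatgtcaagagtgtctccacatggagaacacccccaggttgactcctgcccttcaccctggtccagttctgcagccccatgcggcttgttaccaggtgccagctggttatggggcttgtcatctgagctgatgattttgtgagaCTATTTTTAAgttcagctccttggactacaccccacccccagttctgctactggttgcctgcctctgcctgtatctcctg
The windows also differed in base composition, with 64.0% G and C before *Pgam1* and 53.2% before *Pgam2*.

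The glyceraldehyde phosphate dehydrogenase *Gapdh* and the phosphoglycerate kinase *Pgk1*, the first ATP-yielding enzyme of the pathway, did not pass the test. *Gapdh* read 600.2, 647 and 585 in controls and 623, 628 and 654 in homozygotes, and *Pgk1* 1234, 1266 and 1280.1 in controls and 1178, 1367 and 1403 in homozygotes. Their log2 fold changes against controls were 0.06 ± 0.06 and 0.06 ± 0.07. Reads of *Gapdh* are uncertain, since 43 annotated genes and pseudogenes match its transcript at 95% identity or more over at least 50% of their length, none of which has a row in the table. The same holds for *Pgam1* and *Pgk1*, with 2 such matches each, and for *Gpi1* and *Ldhb*, with 1 each.

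*Bpgm*, which makes the 2,3-bisphosphoglycerate that lowers the oxygen affinity of haemoglobin and is abundant in red cells, rose against heterozygotes. It read 119.6, 88.0 and 76.7 in controls, 72.7, 104 and 85.2 in heterozygotes and 107, 139 and 138 in homozygotes, so that control 1 overlapped the homozygotes. The log2 fold change was 0.55 ± 0.16 against heterozygotes (limma adjusted p 0.0319) and 0.45 ± 0.16 against controls (limma adjusted p 0.0701). The call against heterozygotes was not kept without heterozygote 1, heterozygote 3, homozygote 2 or homozygote 3 (limma adjusted p 0.0863 to 0.121). DESeq2 (adjusted p 0.0874) and limma without the trend also missed it. Control 1 had the highest liver and endoderm markers of all libraries and the highest summed erythroid level of the controls. Without control 1 *Bpgm* was called higher against controls at 0.63 (limma adjusted p 0.0126), and without homozygote 1 at 0.57 (limma adjusted p 0.0408). Erythroid markers moved with it: all 9 measured were called higher against both groups, with median log2 fold changes of 0.73 and 0.87, and among them were the embryonic globins *Hba-x* and *Hbb-bh1*. In each group the library with the lowest summed erythroid level was also the lowest for *Bpgm*, and the highest was also the highest in controls and heterozygotes but not in homozygotes. Per 1000 of that sum *Bpgm* was 2.53, 2.39 and 2.35 in controls, 2.78, 2.34 and 2.46 in heterozygotes and 1.84, 2.13 and 1.81 in homozygotes. The red cell and liver pyruvate kinase *Pklr*, which is not one of the 39 genes, rose by 0.84 ± 0.14 against controls (limma adjusted p 0.0019) and by 0.93 ± 0.14 against heterozygotes (limma adjusted p 0.00113). *Pklr* had a value of 2.71 to 3.12, 2.91 to 3.18 and 2.85 to 3.14 per 1000 of the erythroid sum in controls, heterozygotes and homozygotes.

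The enolases make phosphoenolpyruvate, and here the muscle form *Eno3* rose against controls, the neuronal form *Eno2* fell and the general form *Eno1* was not called. *Eno3* read 146, 147 and 144 in controls, 171, 189 and 174 in heterozygotes and 192, 182 and 186 in homozygotes. Both Cre-carrying groups lay above all controls and overlapped each other. The log2 fold change was 0.35 ± 0.06 against controls (limma adjusted p 0.00118, kept in all 19 alternatives) and 0.07 ± 0.06 against heterozygotes (limma adjusted p 0.472). *Eno2* was the scarcest of the 39 genes, with 4.83, 3.71 and 4.31 in controls, 3.78, 4.35 and 4.96 in heterozygotes and 2.61, 2.96 and 2.03 in homozygotes, or 11 to 41 reads per library. It fell by 0.66 against controls (limma adjusted p 0.0445) and by 0.69 against heterozygotes (limma adjusted p 0.0421), calls kept in only 7 and 6 of 18 alternatives. The call against controls was not kept without any one of the controls, heterozygote 1, heterozygote 2, homozygote 1 or homozygote 3 (limma adjusted p 0.0523 to 0.155). That against heterozygotes was not kept without any one of the controls or heterozygotes, homozygote 1 or homozygote 3 (limma adjusted p 0.0525 to 0.151). *Eno1* differed by -0.12 ± 0.07 against controls, was called lower against heterozygotes only with quantile normalization (-0.24, limma adjusted p 0.0473), and 2 near-identical genes in the table held 5.09% and 4.55% as many reads, so reads may have been divided among them.

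Of the 39 genes *Pkm2*, the pyruvate kinase gene of muscle and most embryonic tissues, had the highest signal per kb in controls, 617. It was ahead of *Pgk1* at 562 and *Ldha* at 530.3, in a ranking that depends on the annotated exonic lengths. It read 1385, 1481 and 1559.6 in controls, 1678, 1677 and 1604 in heterozygotes and 1369.9, 1417 and 1395 in homozygotes, where heterozygotes were above both other groups. It fell against heterozygotes by 0.25 on the log2 scale (limma adjusted p 0.022) and differed by -0.08 ± 0.06 from controls (limma adjusted p 0.443), where it was called lower with quantile normalization (-0.20, limma adjusted p 0.0453). The call was not kept without heterozygote 1, heterozygote 2 or homozygote 3 (limma adjusted p 0.0549 to 0.0752). Limma without the trend and a replicate block also missed it. The table has 1 value per gene, so its M1 and M2 splice forms cannot be told apart.

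In lactate handling, the transporters changed while the dehydrogenases were not called. The monocarboxylate exporter *Slc16a3* (MCT4, chr11:120809794-120822182, plus strand) read 171, 173 and 168 in controls, 181, 202 and 192 in heterozygotes and 153, 137 and 128 in homozygotes. The homozygotes were below both groups and the heterozygotes above the controls. *Slc16a3* fell by 0.30 against controls (limma adjusted p 0.0108) and by 0.46 against heterozygotes (limma adjusted p 0.00102), and the calls were kept without any single library. *Slc16a1* (MCT1), which carries lactate in either direction, read 184, 166 and 182 in controls, 157, 176 and 178 in heterozygotes and 149, 157 and 132 in homozygotes. It fell by 0.28 against controls (limma adjusted p 0.0235), a call not kept without control 1, control 3 or homozygote 3 (limma adjusted p 0.076 to 0.0969), and differed by -0.22 ± 0.07 from heterozygotes (limma adjusted p 0.0662), a difference that passed without heterozygote 1 or homozygote 2 (limma adjusted p 0.0474 and 0.0428). *Ldha*, which favours lactate formation, and *Ldhb*, which favours its use, differed by -0.09 ± 0.06 and -0.03 ± 0.07 from controls. Exons of *Slc16a3* share 831 bases (15.6%) with *Csnk1d* on the opposite strand, and without strand information reads there cannot be told apart. The start of *Slc16a3* is shown as that of a known hypoxia target with 2 ACGTG matches, in capitals, close to the start (chr11:120948817-120949066, plus strand, GRCm38.p6, RefSeq).
Slc16a3: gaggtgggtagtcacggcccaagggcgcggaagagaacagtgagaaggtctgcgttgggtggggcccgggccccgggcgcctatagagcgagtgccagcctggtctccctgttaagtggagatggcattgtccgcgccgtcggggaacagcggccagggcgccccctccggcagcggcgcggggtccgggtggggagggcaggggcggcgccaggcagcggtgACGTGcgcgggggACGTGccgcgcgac

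Glycogen, the stored form of glucose that embryonic heart muscle holds in quantity, is built by glycogen synthase and opened by phosphorylases. The muscle synthase *Gys1* read 134, 142 and 144 in controls, 136, 150.2 and 145 in heterozygotes and 115, 112 and 114 in homozygotes, all below every other library. It fell by 0.30 against controls (limma adjusted p 0.00395) and by 0.34 against heterozygotes (limma adjusted p 0.00226), in all 19 alternatives. The muscle phosphorylase *Pygm* read 116, 139 and 151 in controls, 136, 148 and 138 in heterozygotes and 105, 105 and 99.8 in homozygotes, and fell by 0.38 (limma adjusted p 0.0088) and 0.45 (limma adjusted p 0.00379). The liver phosphorylase *Pygl* moved the other way, from 46.2, 48.0 and 51.7 in controls and 49.2, 52.3 and 50.9 in heterozygotes to 63.0, 75.7 and 68.3 in homozygotes. *Pygl* rose by 0.50 ± 0.08 against controls (limma adjusted p 0.00117) and by 0.44 ± 0.08 against heterozygotes (limma adjusted p 0.00308), in all 19 alternatives. Of the 6 liver and endoderm markers measured 1 rose in each comparison, *Sox17*, and the median of the 6 was 0.82 against heterozygotes and -1.94 against controls. Their part in the change of *Pygl* was not tested. The brain phosphorylase *Pygb* and the phosphoglucomutases *Pgm1* and *Pgm2*, as the files' annotation names them, were not called, at -0.06, -0.07 and -0.05 against controls.

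Of 16 other glycogen genes described here, 6 fell against controls (37.5%, beside 8.03% of all genes) and 10 were not called, with a median log2 fold change of -0.23. The regulatory subunits that bring protein phosphatase 1 to glycogen, *Ppp1r3b*, *Ppp1r3c* and *Ppp1r3d*, fell by 0.76 (limma adjusted p 3.8e-05), 0.65 (limma adjusted p 5.3e-05) and 0.41 (limma adjusted p 0.0227). The lysosomal glucosidase *Gaa* fell by 0.86 (limma adjusted p 0.00029) and the branching enzyme *Gbe1* by 0.35 (limma adjusted p 0.0132). *Pgm5*, a phosphoglucomutase relative found at muscle cell junctions, fell by 0.34 (limma adjusted p 0.00515). *Gaa* read 82.6, 75.7 and 83.4 in controls, 74.1, 91.5 and 83.2 in heterozygotes and 51.2, 46.1 and 36.2 in homozygotes, without overlap. Against heterozygotes 7 of the 16 genes fell (43.8%, beside 6.70% of all genes) and 1 rose (6.25%, beside 6.87%), with a median of -0.26. Genes that build glycogen (*Gys1*, *Gbe1*) and genes that open it (*Pygm*, *Gaa*) were both among those that fell, as the plot of glycogen genes shows.

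**Figure D3:**
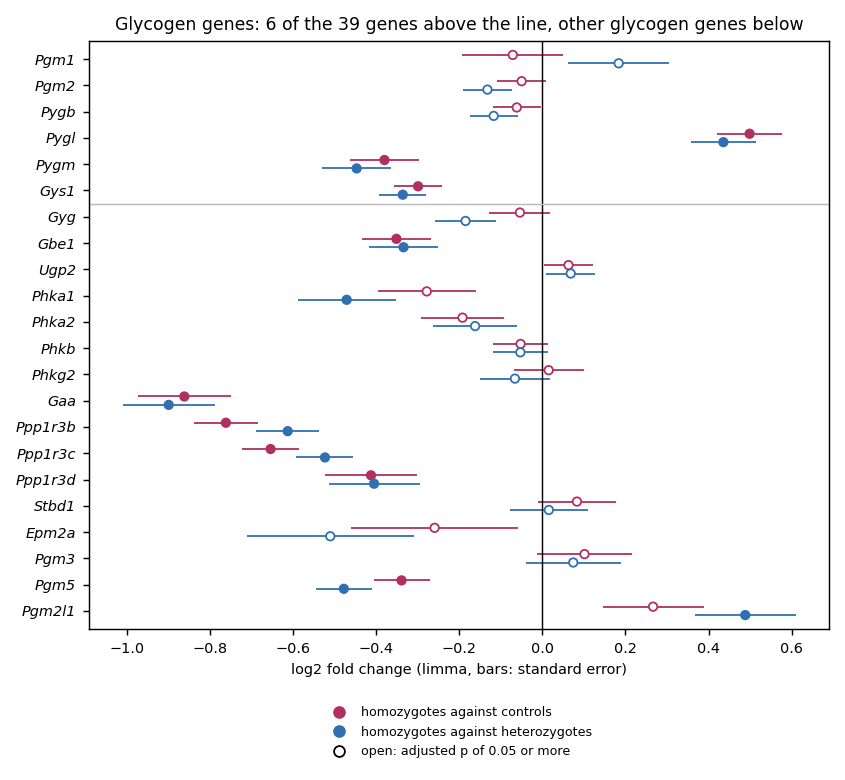
Log2 fold change of the 6 glycogen genes among the 39 (above the line) and of 16 other glycogen genes (below), in homozygotes against controls (red) and against heterozygotes (blue), with limma standard error bars and filled points where called. *Pygl* is the only gene called higher against controls, at 0.50, and *Gaa* lies furthest left at -0.86 and -0.90.

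Of the branch genes, the pyruvate dehydrogenase kinases inhibit the enzyme that turns pyruvate into acetyl-CoA in mitochondria, and *G6pdx* opens the pentose phosphate pathway. *Pdk3* read 107, 118 and 106 in controls, 94.8, 99.2 and 112 in heterozygotes and 84.8, 93.8 and 88.5 in homozygotes. It fell by 0.31 against controls (limma adjusted p 0.013), a call not kept without control 2 (limma adjusted p 0.0554), and differed by -0.19 ± 0.07 from heterozygotes (limma adjusted p 0.103). *Pdk1*, the hypoxia-responsive kinase, and *Pdk2* differed by 0.09 and 0.12 from controls and were not called, although their homozygote libraries were all above the controls. With the gene length trend removed *Pdk1* was called higher against controls. *G6pdx* ranged from 27.9 to 33.2 in controls and from 29.2 to 39.1 in homozygotes.

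Muscle and non-muscle isoenzymes of the same step were then compared within each library, as log2 ratios of 10 pairs. The muscle form was put first, except for lactate dehydrogenase, where the heart form *Ldhb* was put first. The ratio *Pgam2*/*Pgam1* was -2.47, -2.39 and -2.34 in controls, -2.24, -2.29 and -2.18 in heterozygotes and -1.08, -1.01 and -1.05 in homozygotes, a shift of 1.35 against controls and of 1.19 against heterozygotes. The ratio *Slc2a4*/*Slc2a1* was higher in homozygotes by 0.69 and 0.73, *Pfkm*/*Pfkp* by 0.48 and 0.56, and *Eno3*/*Eno1* by 0.47 and 0.21, each without overlap of the groups. With the gene length trend removed *Pfkm*/*Pfkp* was 0.32 higher than in controls, and *Eno3*/*Eno1* was 0.10 higher than in heterozygotes, with overlap (exact permutation p 0.3). The pairs did not all shift towards the muscle form. *Hk2*/*Hk1* was shifted by -0.31 against controls and -0.26 against heterozygotes, and *Pygm*/*Pygb* by -0.32 and -0.33, also without overlap. *Aldoa*/*Aldoc* was 0.61 higher than in controls, or 0.45 with overlap after quantile normalization, and overlapped heterozygotes. *Pfkm*/*Pfkl*, at 0.07 and 0.01, and *Ldhb*/*Ldha*, at 0.05 and -0.01, overlapped in both comparisons, while *Slc16a3*/*Slc16a1* overlapped controls at -0.02 and differed by -0.24 from heterozygotes. With 3 libraries against 3 the exact two-sided permutation test cannot go below p = 0.1, which the pairs without overlap reached (Benjamini-Hochberg adjusted p 0.143 over the 10 pairs of each comparison).

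**Figure D4:**
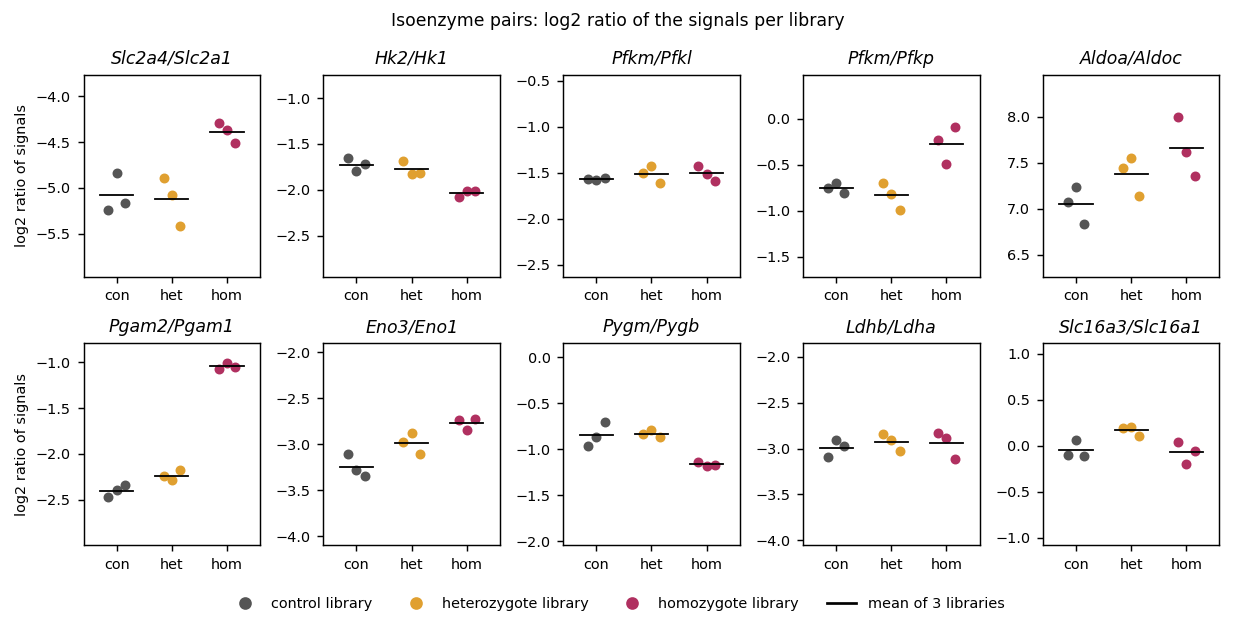
Log2 ratio of the normalized signals of 10 isoenzyme pairs in each library, by group, with a line at the mean of 3 libraries. Every panel spans the same range of log2 units around its own mean, and the *Pgam2*/*Pgam1* panel shows the widest gap, from -2.47 to -2.18 in controls and heterozygotes to -1.08 to -1.01 in homozygotes.

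Dividing the signal by exonic length, the merged exons of all annotated forms of a gene, gave a rough level for each isoenzyme. That length can exceed the length of a transcript. *Eno1* has 5379 bases of merged exons, beside 1757 for its near-identical copy *Gm5506*. The levels and shares below therefore depend on the annotation. *Pgam2* made up 29.2% ± 0.93 (SD, n = 3) of phosphoglycerate mutase signal per kb in controls, 31.6% ± 0.82 in heterozygotes and 51.3% ± 0.61 in homozygotes, while the total of both genes per kb was 569 in controls, 606 in heterozygotes and 704 in homozygotes. *Eno3* made up 25.1% ± 1.58 of enolase signal per kb in controls, 28.6% ± 1.67 in heterozygotes and 31.7% ± 0.92 in homozygotes, at totals of 345, 369 and 348. *Pfkp* made up 15.2% ± 0.57, 16.3% ± 1.06 and 11.7% ± 1.62 of phosphofructokinase signal, whose total was 104, 107 and 85.7, and *Pfkl* remained the largest part at 58.6% ± 1.92 in homozygotes. *Hk2* held 30.1% ± 1.01, 29.4% ± 1.1 and 25.8% ± 0.53 of hexokinase signal. Among phosphorylases *Pygm* held 39.9% ± 2.08, 40.1% ± 0.62 and 32.7% ± 0.83 and *Pygl* 12.1% ± 0.58, 12.1% ± 0.08 and 18.3% ± 1.34. *Slc2a4* held only 2.67% ± 0.44 of transporter signal in controls and 4.27% ± 0.31 in homozygotes, and *Slc2a1* supplied 91.6% and 90.6%. For these shares no separate test was run, and the tests of the genes and ratios above are those that apply.

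**Figure D5:**
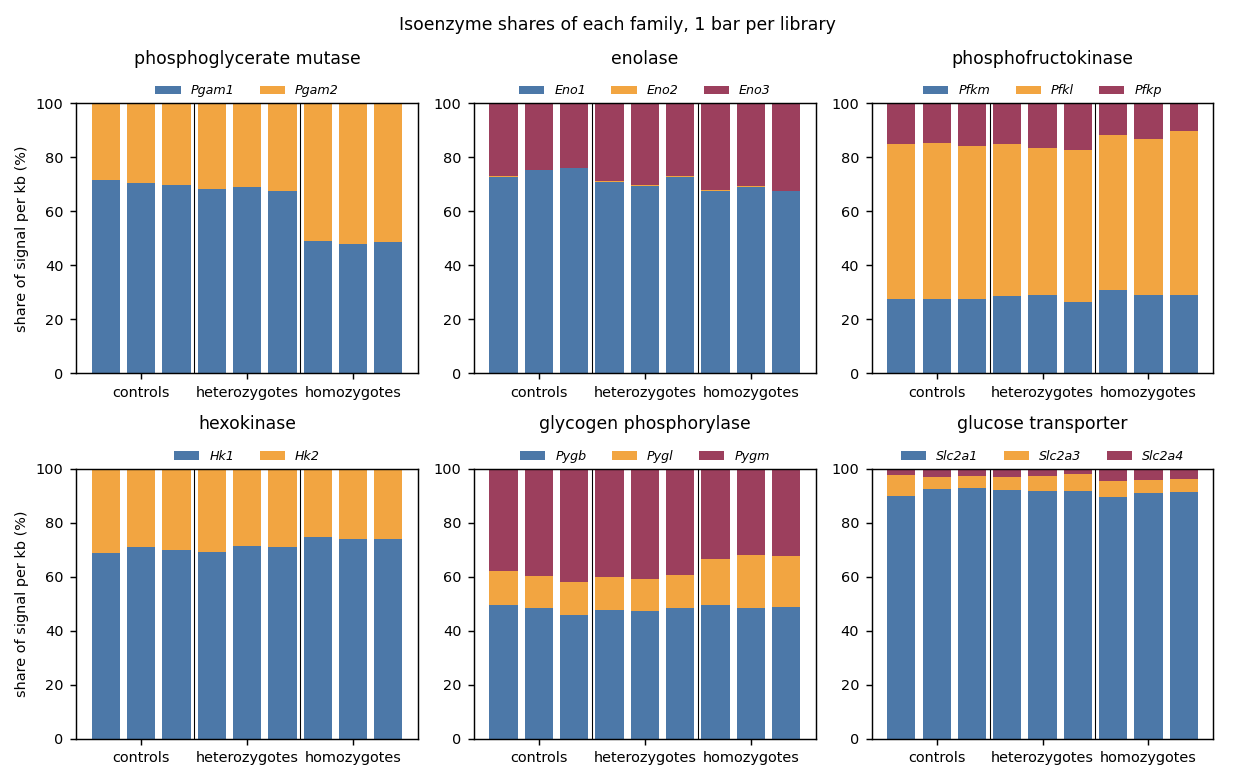
Share of each isoenzyme in the summed signal per kb of exonic length of its family (vertical axis, 0 to 100%), with 1 bar per library in the order controls, heterozygotes, homozygotes. The *Pgam2* part of the bar grows from 29.2% on average in controls to 51.3% in homozygotes.

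In heterozygotes, which keep 1 unrecombined *Ctcf* allele, limma called 0 of the 39 genes against controls, beside 0.143% of all genes called in either direction. At an unadjusted p under 0.05 there were 4 (10.3%, beside 7.37% of all genes), *Pgam2*, *Eno3*, *Pkm2* and *Slc16a3*, each higher in heterozygotes, and edgeR's quasi-likelihood test called 0 and DESeq2 called 1, *Eno3* (DESeq2 adjusted p 0.0284). The *Eno3* difference was 0.29 ± 0.06 on the log2 scale (limma adjusted p 0.0963), and all heterozygote libraries, from 171 to 189, were above all controls, from 144 to 147. *Pgam2* differed by 0.21 ± 0.07 (limma adjusted p 0.491). The median over the 39 genes was 0.06, with 29 above 0 and 10 below, and -1.99e-05 over all genes. The heterozygote mean was the highest of the 3 groups for 23 of the 39 genes (59.0%, beside 29.5% of all genes), among them *Slc16a3*, *Pkm2* and *Pfkp*.

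Neighbouring parts of sugar metabolism were read from further lists. Among 11 other glycolysis genes *Pklr* and *Pfkfb1*, the liver form of the bifunctional enzyme, rose against controls by 0.84 and 0.55 (limma adjusted p 0.0019 and 0.0323). Among 12 other transport genes 1, *Txnip*, an inhibitor of glucose uptake, fell by 0.28 (limma adjusted p 0.0295). Of 11 pentose phosphate genes *Taldo1* rose by 0.31 (limma adjusted p 0.00978), and of 12 genes of pyruvate entry *Pdp2*, the phosphatase that reactivates pyruvate dehydrogenase, rose by 0.72 (limma adjusted p 0.00999). With the 3 gluconeogenesis genes and the glycogen list, 4 of 65 such genes rose (6.15%, beside 7.19% of all genes) and 7 fell (10.8%, beside 8.03%) against controls, and 5 rose (7.69%, beside 6.87%) and 8 fell (12.3%, beside 6.70%) against heterozygotes. Among those called against heterozygotes were the pentose phosphate gene *Rpia*, at 0.50 (limma adjusted p 0.0237), and the mitochondrial carboxykinase *Pck2*, at 0.31 (limma adjusted p 0.023).

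Many glycolytic genes are textbook targets of the hypoxia-inducible factor HIF-1, so its components and other hypoxia-responsive genes were read beside them. Of 12 genes listed as its components or as MYC factors 1 rose and 1 fell against controls (8.33% each, beside 7.19% and 8.03% of all genes), and 1 rose and 2 fell against heterozygotes (8.33% and 16.7%, beside 6.87% and 6.70%). *Hif1a*, the oxygen-regulated subunit, fell by 0.29 against controls (limma adjusted p 0.00843) and by 0.24 against heterozygotes (limma adjusted p 0.0244), and *Myc*, another activator of glycolytic genes, rose by 0.37 (limma adjusted p 0.0221) and 0.58 (limma adjusted p 0.00204). Its relative *Mycn* fell against heterozygotes by 0.26 (limma adjusted p 0.0449). Of 19 hypoxia-responsive genes outside glycolysis, 3 rose against controls (*Ndrg1*, *Nrn1* and *Ccng2*, 15.8% beside 7.19% of all genes), 1 fell (*Ero1l*, 5.26% beside 8.03%) and 15 were not called, with a median of -0.03. Against heterozygotes 3 rose (*Ndrg1*, *Nrn1* and *Bnip3l*, 15.8% beside 6.87%), 1 fell (*P4ha2*, 5.26% beside 6.70%) and 15 were not called. *Ndrg1* read 4.83, 5.34 and 6.80 in controls and 18.7, 16.7 and 15.4 in homozygotes, and rose by 1.51 ± 0.18 on the log2 scale (limma adjusted p 0.00014).

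The promoter windows of 250 bases before each RefSeq start (GRCm38.p6) were searched on both strands for the hypoxia response core ACGTG, the E-box CACGTG, which contains it, and the MEF2 consensus of muscle genes. Of the 39 genes 37 had a window, 53 windows in all with 1 to 4 per gene. ACGTG lay in 23 of the 53 windows (43.4%) and in at least 1 window of 19 genes, beside 16.6% of all 32851 windows and 21.2% of the 12305 windows of genes in the table. CACGTG lay in 6 windows (11.3%, beside 6.02% of all windows and 8.18% of those of genes in the table) and the MEF2 consensus in 1, that of *Pgam2* (1.89%, beside 2.92% and 1.67%). These matches describe the letters of the windows and were not tied to the expression values by any test. Of the genes with a window, ACGTG was found for 1 of 3 called higher against controls (*Pygl*), for 6 of 10 called lower (*Hk2*, *Pgam1*, *Slc16a1*, *Slc16a3*, *Pygm* and *Pdk3*) and for 12 of 24 not called.

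Other cell types that the dissected hearts could hold were read from marker lists. Their counts stand beside 7.19% of all genes called higher and 8.03% called lower against controls, and 6.87% and 6.70% against heterozygotes. Of 7 epicardial markers 3 rose against controls, with summed levels of 339 to 395 in controls and 475 to 542 in homozygotes, and of 9 cushion mesenchyme markers 3 fell, with sums of 2127 to 2378 and 1536 to 1911. Of 10 endothelial and endocardial markers 1 rose (10%) and 3 fell (30%) against controls. Against heterozygotes 3 epicardial markers rose, 2 cushion markers fell and 1 endothelial marker fell. Of 4 neural markers measured 2 rose in each comparison, and of the 6 macrophage markers measured none was called against controls and 1, *C1qb*, rose against heterozygotes. Of 12 cardiomyocyte markers 2 rose (*Tnni3* and *Myl4*) and 2 fell (*Nkx2-5* and *Ryr2*) against controls, while against heterozygotes none rose and 4 fell (*Myh6*, *Myh7*, *Nkx2-5* and *Ryr2*), with 10 of 12 below 0. Of 8 skeletal muscle markers 3 were measured (*Ckm*, *Acta1* and *Mylpf*), with summed levels of 276 to 315 in controls, 341 to 377 in heterozygotes and 312 to 326 in homozygotes, and the regulators *Myod1*, *Myog* and *Myf5* had no row in the table. Against controls 1 of the 3 rose, *Mylpf*, a fast muscle myosin light chain, by 0.87 (limma adjusted p 0.000207), and the median was 0.63. Against heterozygotes *Mylpf* rose by 0.42 (limma adjusted p 0.0201) and *Acta1* fell by 0.22 (limma adjusted p 0.0304). The part of these cell types in the changes of the 39 genes was not tested. The genes called lower against controls were longer, with a median exonic length of 4566 bases, than the 4 called higher, with 2261, and those not called had 3163. With the length trend removed 5 of the 39 genes were called higher (12.8%, beside 6.01% of all genes in the same fit) and 9 lower (23.1%, beside 4.96%) against controls. Of the 14 calls against controls 6 were kept in every alternative in which the gene was tested (*Pgam2*, *Pfkp*, *Pfkl*, *Eno3*, *Pygl* and *Gys1*), and of the 15 against heterozygotes 8 were (*Pgam2*, *Pfkp*, *Pfkl*, *Hk2*, *Slc16a3*, *Pygl*, *Pygm* and *Gys1*).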

How the data were processed

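RNA from whole E10.5 hearts was polyA-selected and made into libraries with a standard TruSeq kit, 3 pools of 6 hearts per group. Per the submitters' processing notes CASAVA 1.8, cutadapt 1.6.1, Bowtie2 0.12.7, RSEM 1.20 and limma were used on NCBIM37. The authors deposited 1 table of normalized signal for 14011 genes, in which 0.5 had been added to each read count before scaling per library. All genes listed reached 1 in 3 or more libraries. Homozygote columns were matched to samples by title. The control and heterozygote columns carry other abbreviations and were matched to their group only, through the growth protocol, the study's text and its table of group means, which equal the means of these columns.

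Values were taken as log2(signal + 0.5) and fitted over all genes and all 9 libraries with limma 3.58.1 in R 4.3.3, with a mean-variance trend and Benjamini-Hochberg adjustment. All values were whole reads within 0.01 of a read once that 0.5 was taken off, and these reads were tested with edgeR 4.0.16 (quasi-likelihood) and DESeq2 1.42.0 as alternatives. Over all genes, limma called 2133 against controls and 1901 against heterozygotes, edgeR 2212 and 1903, and DESeq2 1647 and 1434. Fold changes are on the log2(signal + 0.5) scale, and ratios of means on the linear scale. The 19 alternatives also covered pseudocounts of 0.1 and 1, a filter at a mean of 5, quantile normalization, limma without the trend, removal of the gene length trend, only the groups compared, a replicate block and leaving out each of the 9 libraries. Isoenzyme ratios were tested by exact permutation over libraries. Near-identical genes were sought with BLAST+ 2.17.0 at 95% identity over at least 50% of the exonic length of the copy and at least 200 bases. The MEF2 consensus was set to its usual degenerate form after the values had been seen. The model fits across genes were tested on simulated data.

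The genes and lists were chosen with earlier results of these data known. The genes named with values are those called in any comparison, the isoenzyme pairs, the most abundant gene of each step, and at most 6 called genes of each other list by adjusted p against controls. A gene of the glycogen list is not reported here and was left out of its counts. Strand of counting is not given in the sources used here. The lowest count of any of the 39 genes in any library was 11 reads.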

Additional observations from a re-analysis of the deposited data

How the results depend on the processing

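Of 549 values of called genes under the 19 alternatives, 466 stayed on their side of the threshold, 83 kept their direction but missed it, and none turned. Limma without the trend called 4 of the 39 genes lower against controls (10.3%, beside 4.37% of all genes in that fit). Against heterozygotes it called 2 higher (5.13%, beside 3.86%), DESeq2 2 (5.13%, beside 5.26%, so no longer above the share of all genes) and the fit of only the groups compared 3 (7.69%, beside 6.12%). In limma without the trend *Slc2a4*, *Hk2*, *Pgam1*, *Slc16a1*, *Slc16a3*, *Pygm* and *Pdk3* missed the threshold against controls. *Slc2a4*, *Pfkm*, *Pfkfb4*, *Bpgm*, *Pgam1* and *Pkm2* missed it there against heterozygotes. DESeq2 called 1 gene higher in heterozygotes than in controls (2.56%, beside 0.121%). With quantile normalization the median of the 39 genes was -0.13 against controls and -0.18 against heterozygotes. In that fit 11 (28.2%, beside 7.90%) and 14 (35.9%, beside 6.62%) were called lower. With single libraries left out, the median against controls ran from -0.10 (without control 1) to -0.02 (without homozygote 3). Without 1 library, 3 to 4 genes were called higher against controls (7.69% to 10.3%, beside 3.73% to 7.12% of all genes). Those lower numbered 7 to 10 (17.9% to 25.6%, beside 3.76% to 7.76%). Against heterozygotes 2 to 5 were higher (5.13% to 12.8%, beside 3.68% to 6.81%). There 7 to 10 were lower (17.9% to 25.6%, beside 3.62% to 6.46%). Without homozygote 2 the genes higher against heterozygotes were near the share of all genes (5.13%, beside 5.01%). The causes were not tested.

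Ratios near 0 turned. With the length trend removed, *Ldhb*/*Ldha* was -0.0026 and *Slc16a3*/*Slc16a1* 0.0016 against controls, and *Pfkm*/*Pfkl* -0.033 against heterozygotes, and with quantile normalization *Ldhb*/*Ldha* was 0.0085 against heterozygotes. Without 1 library, *Ldhb*/*Ldha* ran from -0.0016 (without homozygote 1) to 0.138 (without homozygote 3) against controls and from -0.0686 to 0.0709 (the same libraries) against heterozygotes. *Slc16a3*/*Slc16a1* ran from -0.0776 (without homozygote 1) to 0.0411 (without homozygote 2) against controls, and *Pfkm*/*Pfkl* from -0.0394 (without heterozygote 3) to 0.0525 (without heterozygote 2) against heterozygotes. Against controls *Pfkm*/*Pfkl* stayed above 0, from 0.018 with the length trend removed to 0.119 with quantile normalization. At 0.119 the groups did not overlap (exact permutation p 0.1), nor did they without homozygote 3 (0.107). *Slc16a3* missed the threshold against controls in limma without the trend (adjusted p 0.0573).

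Libraries with the same number correlated at -0.043 to 0.085, so the numbers do not pair them. With a replicate block 4 genes were called higher and 10 lower against controls (10.3% and 25.6%, beside 5.79% and 6.74% of all genes), where *Aldoc* was gained (adjusted p 0.0371) and *Eno2* lost. Against heterozygotes 4 and 7 were called (10.3% and 17.9%, beside 5.70% and 5.38%), and 0 in heterozygotes against controls. *Eno2* had 11 to 41 reads per library, and the part of depth in its lost calls was not tested.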
